A study of Mus musculus with 43 samples.

Results

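The histone genes comprise every gene in the deposited expression table whose symbol begins with Hist1h, Hist2h, Hist3h, Hist4h, H2af, H3f3 or H1f, together with Cenpa. This rule took 84 of the 22462 genes in the table, 68 of them clustered replication genes (the Hist symbols) and 16 replacement variants. The rule takes members by name and not by their measured values, though it was set with earlier results of these data known. Of the 84 members, 65 were tested by the authors, 54 clustered and 11 replacement genes.

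Histones are the proteins around which DNA is wrapped. The clustered genes (H1, H2A, H2B, H3 and H4) are transcribed in S phase, lack introns, and give mRNAs that end in a stem-loop in place of a poly(A) tail. Replacement variants such as H3.3, H2A.Z, macroH2A and H1.0 are made throughout the cell cycle from polyadenylated mRNAs and are placed in chromatin outside replication, and Cenpa encodes the centromeric H3. The stem-loop binding protein and the U7 snRNP direct the special 3' end of the clustered mRNAs, although polyadenylated forms of these mRNAs also exist.

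The libraries came from E14 cells, a mouse embryonic stem cell line grown with serum and LIF on gelatin-coated plates, as a control group and a group labelled MTF2 KO, with 3 RNA-seq libraries each. MTF2 is a Polycomb-like subunit of PRC2, a writer of repressive histone H3 methylation. The design calls the replicates biological, and the sources used here do not say whether the knockout libraries came from 1 clone or several. Poly(A) RNA was taken from total RNA with oligo-dT beads, so the values of clustered genes describe the transcripts that this step captured. The deposited table holds 1 pooled FPKM value per gene and group (fragments scaled to transcript length and sequencing depth), so no SD or n per value can be given, the depth of each library is unknown, and levels of clustered genes are not ranked here against those of replacement genes except as captured transcripts. Of the 43 samples, the 36 ChIP-seq samples and the 1 input, which also cover cells rescued with wild-type or K339A MTF2, were not analysed here.

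A gene is called here where the authors' Cuffdiff q was at or under 0.05. The log2 ratio is that of knockout over control after adding 0.5 to each FPKM value, which understates the change of low genes. Mtf2 stood at 74.3 FPKM in control cells against 44.7 in the knockout (q = 0.0496 in the authors' deposited table). Its locus entry is shared with another gene, so these values may not be of Mtf2 alone, and they check the label only in direction. Of 8 embryonic stem cell markers, all were detected in both groups, 1 was called higher (Tdgf1, 41.3 and 70.6 FPKM), and their summed level was 5191 FPKM in control cells against 5095 in the knockout. Of 8 primitive endoderm markers, 6 were called higher and 0 lower, none was listed at 0, and their summed level was 26.3 FPKM in control cells against 496 in the knockout. Of these, Col4a1 (6.49 and 185 FPKM) shares its locus entry with another gene. Gata4 and Sox7 lie on chromosome 14, where tested genes had a median log2 ratio of 0.70. Of 8 fibroblast markers, 1 was tested and not called, their summed level was 5.87 and 13.2 FPKM, and Col3a1, Dcn and Postn were listed at 0 in both groups.

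Among the 65 tested histone genes, 4 rose, 0 fell and 61 had no call. The called genes were H1f0, H3f3b, Hist1h1e and Hist1h2bf. Across all 11362 tested genes 12.9% were called, 6.9% higher and 6.03% lower. At an unadjusted Cuffdiff p under 0.05 the tested members divided into 7 higher and 0 lower, beside 12.7% higher and 13% lower of all tested genes. Of the 54 clustered genes 2 were called (3.7%), a share below the background, and of the 11 replacement genes 2 were called (18.2%), a share above it that rests on 2 genes.

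**Figure D1:**
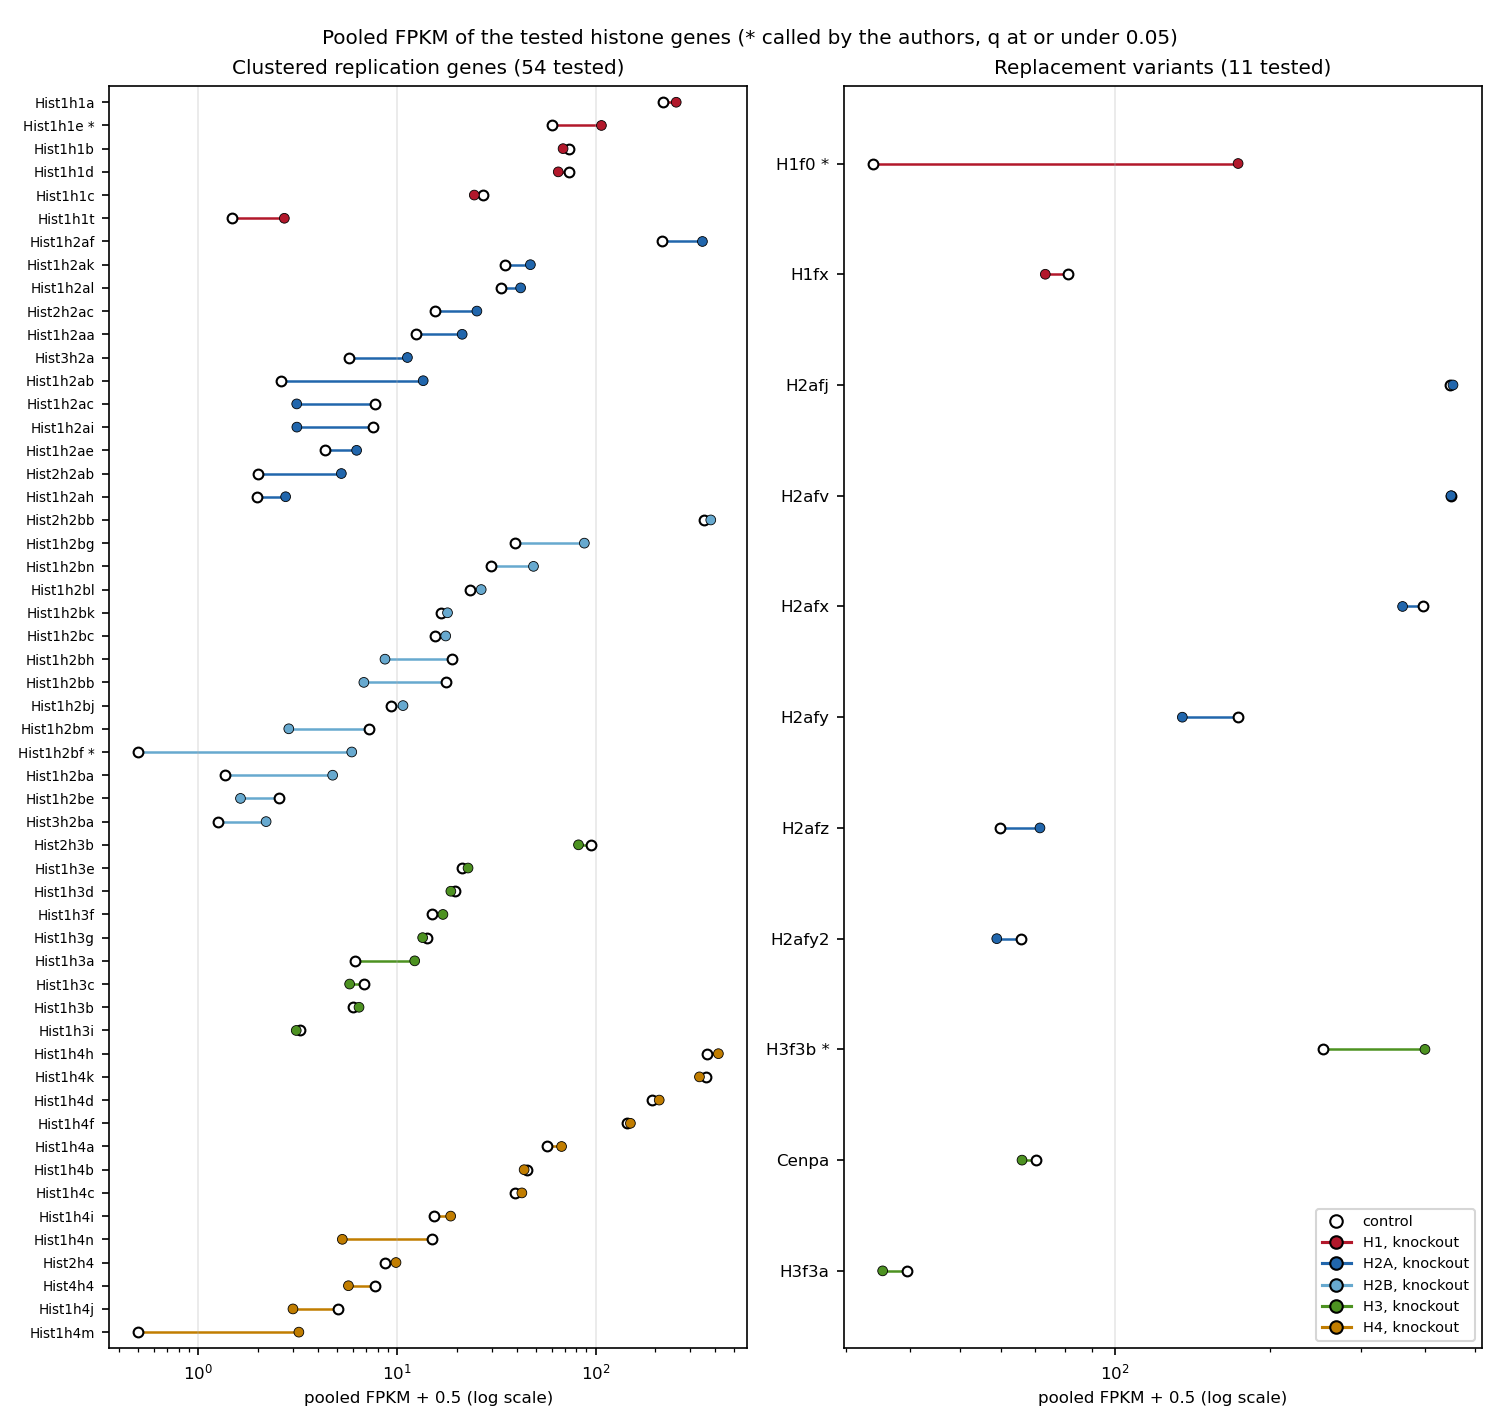
Pooled FPKM plus 0.5 (log scale) of the 54 tested clustered genes (left) and 11 tested replacement variants (right), each line joining control (open circle) to MTF2 knockout (filled, coloured by histone type), with an asterisk on called genes. H1f0 spans 33.4 to 173 FPKM, while most variants lie almost on top of their control value; no error bars exist for pooled values.

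The linker histone genes held the largest change among abundant members. H1f0 encodes H1.0, the replacement linker histone known to accumulate in differentiated and non-dividing cells. It stood at 33.4 FPKM in control cells against 173 in the knockout, 5.17-fold higher (log2 ratio 2.35, q = 0.0012 in the authors' deposited table). It lies on chromosome 15 (79028212 to 79030498, mm10), where the 54 other tested genes within 2 Mb on either side had a median log2 ratio of -0.06. Levels of the primitive endoderm markers moved with it and with H3f3b (26.3 and 496 FPKM in sum, 6 of 8 called higher), and their part in the histone results was not tested. In bulk samples, fewer cells of a type and less RNA per cell cannot be told apart. By the size of the ratio H1f0 ranked 257 of 11362 tested genes.

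Hist1h1e, which encodes the somatic linker histone H1.4, also rose. Its level was 59.8 FPKM in control cells against 107 in the knockout, 1.78-fold higher (log2 ratio 0.83, q = 0.0448 in the authors' deposited table). The gene lies on chromosome 13 (23621755 to 23622502), among 12 tested non-histone genes within 2 Mb whose median log2 ratio was 0.08. It was no longer called under a q limit of 0.01, nor when the test statistic was read as a normal deviate (BH-adjusted q = 0.75). The authors' Cuffdiff p, 0.0056 at a test statistic of 1.68, is not such a normal p, so that reading does not repeat their test.

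The other linker histone genes were not called. Hist1h1a, for H1.1, stood at 217 FPKM in control cells against 254 in the knockout. Hist1h1b, for H1.5, stood at 72.6 and 68.1 FPKM, Hist1h1c, for H1.2, at 26.6 and 24.0 FPKM, and Hist1h1d, for H1.3, at 73.3 and 64.4 FPKM. Of these 4 values, 3 were lower in knockout cells and 1 was higher. H1fx, for the variant H1.10, stood at 80.5 FPKM in control cells against 72.7 in the knockout. Hist1h1t, the testis linker histone gene, stood at 0.984 and 2.21 FPKM, and the oocyte gene H1foo and the spermatid gene H1fnt were listed at 0 for control cells, at 0.459 and 0.429 FPKM for the knockout, and not tested.

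The makeup of captured linker histone transcripts differed accordingly. All H1 genes summed to 564 FPKM in control cells against 766 in the knockout. H1f0 accounted for 5.92% of it in control cells and for 22.6% in the knockout. Hist1h1a made up 38.4% and 33.2%, and Hist1h1e 10.6% and 13.9%. In order of level H1f0 was the sixth of these genes in control cells and the second, after Hist1h1a, in knockout cells. The spread of these shares between libraries is unknown, and for the clustered genes they rest on the polyadenylated forms.

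**Figure D2:**
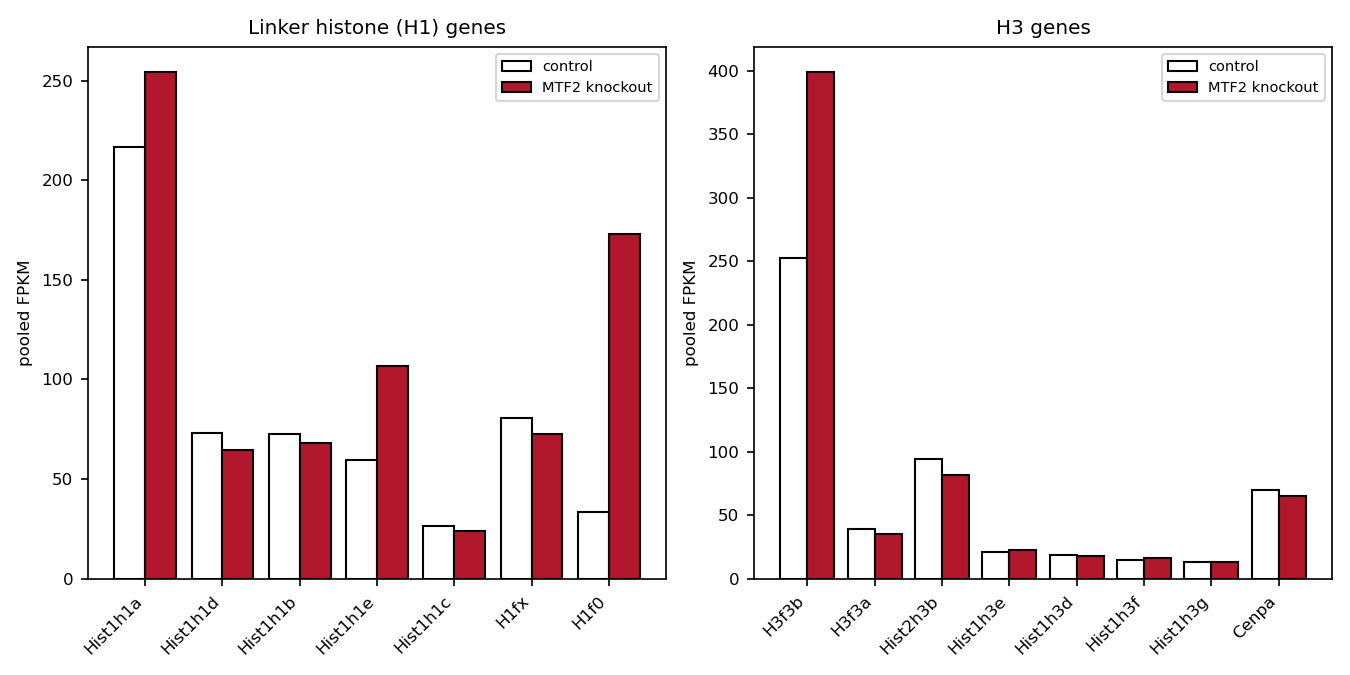
Pooled FPKM (linear axis from 0) of linker histone genes (left) and of H3 genes (right) in control (white) and MTF2 knockout cells (red), without error bars because the values are pooled. H1f0 (33.4 and 173 FPKM) and Hist1h1e (59.8 and 107 FPKM) stand out among the linker genes, and H3f3b (253 and 399 FPKM) among the H3 genes.

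The upstream sequences of the 2 linker genes that rose are shown because they differ in kind. RefSeq windows (GRCm38.p6, the reference of mm10) were found for 76 of 84 members, and the 250 bases before each start were searched on both strands. The search looked for the TATA box as TATAAA. It looked for the CCAAT box by its name's letters. The core of the octamer known from H2B promoters was searched as TTTGCAT. The H1 box known from linker histone promoters was searched as AAACACA. No motif contains another, and matches are in capitals. The H1f0 window (chr15:79027962-79028211, plus strand) held none of the 4 motifs and 24 CpG dinucleotides, with 74.4% G and C. The Hist1h1e window (chr13:23622559-23622808, minus strand) held an H1 box starting 115 bases, a CCAAT 52 bases and a TATA box 27 bases upstream of the start, with 19 CpG dinucleotides. A match is a description of the letters and not a site of binding.
H1f0: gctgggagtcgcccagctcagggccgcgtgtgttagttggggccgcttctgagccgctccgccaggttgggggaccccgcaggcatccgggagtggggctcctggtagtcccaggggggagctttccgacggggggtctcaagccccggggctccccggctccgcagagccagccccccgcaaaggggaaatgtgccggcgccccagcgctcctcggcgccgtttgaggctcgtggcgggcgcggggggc
Hist1h1e: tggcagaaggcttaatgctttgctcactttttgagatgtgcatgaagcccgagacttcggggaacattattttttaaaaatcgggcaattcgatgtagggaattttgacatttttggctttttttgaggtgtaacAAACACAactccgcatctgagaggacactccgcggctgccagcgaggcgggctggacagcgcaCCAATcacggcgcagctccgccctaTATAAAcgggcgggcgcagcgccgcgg

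Of the 6 clustered H1 windows, 5 held the H1 box, against 6.25% of all 32851 windows of the same length. All 6 held CCAAT, against 33.8% of all windows. Of the 4 replacement H1 windows, 0 held the H1 box or TATAAA and 1 held CCAAT. The H1 box and CCAAT were thus more frequent in the clustered linker windows, a difference that was not tested, and Hist1h1a had no H1 box.

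Among the H3 genes, the replacement gene H3f3b rose. H3f3a and H3f3b both encode H3.3, the form placed in chromatin by HIRA and by ATRX with DAXX. H3f3b (chromosome 11, 116021912 to 116027962) stood at 253 FPKM in control cells against 399 in the knockout, 1.58-fold higher (log2 ratio 0.66, q = 0.0275 in the authors' deposited table). The 72 other tested genes within 2 Mb had a median log2 ratio of -0.10. H3f3a stood at 38.9 FPKM in control cells against 34.9 in the knockout and was not called. Together the pair summed to 292 and 434 FPKM, and H3f3b made up 86.7% of that sum in control and 92.0% in knockout cells. H3f3b was no longer called under a q limit of 0.01, nor when the test statistic was read as a normal deviate (BH-adjusted q = 0.722). H1f0 was called under both. The authors' Cuffdiff p for H3f3b, 0.0028 at a test statistic of 1.74, is not such a normal p, so that reading does not repeat their test.

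The H3f3b window (chr11:116024505-116024754, minus strand) is shown because it carries TATAAA and the octamer core, each more frequent in clustered windows than in all windows. The RefSeq start used lies inside the deposited locus, not at its edge. It held 4 CCAAT matches, a TATA box starting 27 bases upstream and octamer cores at 225 and 74 bases. Of 15 replacement windows it was the 1 with TATAAA and the 1 with the octamer core. The H3f3a window held 1 CCAAT and 1 H1 box but neither of those. CCAAT was in 10 of the 15 replacement windows, and the octamer core was in 0 of 10 clustered H3 windows.
H3f3b: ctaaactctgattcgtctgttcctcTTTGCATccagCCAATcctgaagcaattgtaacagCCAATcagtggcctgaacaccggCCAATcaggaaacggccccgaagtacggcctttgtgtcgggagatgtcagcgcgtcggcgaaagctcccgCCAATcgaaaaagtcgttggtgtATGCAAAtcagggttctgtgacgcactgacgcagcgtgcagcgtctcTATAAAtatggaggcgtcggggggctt

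Cenpa stood at 69.8 FPKM in control cells against 65.5 in the knockout and was not called. The clustered H3 genes, which encode H3.1 and H3.2, were not called either. Of 12 members 9 were tested, with a median log2 ratio of -0.06 and an interquartile range of -0.07 to 0.10. Hist2h3b stood at 94.3 FPKM in control cells against 81.5 in the knockout, Hist1h3e at 20.7 and 22.3 FPKM, Hist1h3d at 19.1 and 18.2 FPKM, Hist1h3f at 14.5 and 16.5 FPKM, and Hist1h3g at 13.6 and 12.98 FPKM. Of the 9 tested, 8 kept within 1.5-fold of control. Among the lower genes, Hist1h3a stood at 5.64 and 11.8 FPKM (log2 ratio 1.00, the widest of the type), Hist1h3c at 6.30 and 5.28 FPKM, Hist1h3b at 5.53 and 5.94 FPKM, and Hist1h3i at 2.75 and 2.61 FPKM. The clustered H3 genes summed to 184 FPKM in control cells against 177 in the knockout. The H3.3 pair made up 61.3% of all captured H3 transcripts other than Cenpa in control cells and 71.0% in knockout cells.

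No replacement H2A gene was called among 6 tested. H2afz and H2afv encode the 2 forms of H2A.Z, found at promoters and enhancers. H2afv stood at 448.1 FPKM in control cells against 448.2 in the knockout, and H2afz at 59.3 and 71.0 FPKM. H2afx, whose product is phosphorylated at DNA breaks, stood at 396 and 361 FPKM, and H2afj at 447 and 452 FPKM. The macroH2A genes H2afy (173 and 135 FPKM, log2 ratio -0.36) and H2afy2 (65.0 and 58.4 FPKM, log2 ratio -0.15) were both lower in value, and neither was called. H2afy2 shares its locus entry with Aifm2. The X-linked testis genes H2afb1, H2afb2 and H2afb3 were listed at 0 in both groups.

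Of the 11 tested replacement genes, 9 kept within 1.5-fold of control. Their median log2 ratio was -0.09, and 5 had a ratio above 0. The median was -0.0035 over all tested genes, and -0.20 over the 1994 with a mean of 50 FPKM or more. All tested replacement genes but H3f3a (mean 36.9 FPKM) were at that level, so the median lies below the first of these and above the second. Summed FPKM of the replacement genes came to 2063 in control cells and 2271 in the knockout, a ratio of 1.10. H1f0 and H3f3b rose by more FPKM between them than the whole sum gained, while the 6 tested H2A variants summed, with the 3 at 0, to 1587 and 1525 FPKM. Scaling each group to its summed FPKM moves the median of all tested genes by 0.14 on the log2 scale, and the replacement median then turned to 0.05, so its sign is not settled by these values.

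**Figure D3:**
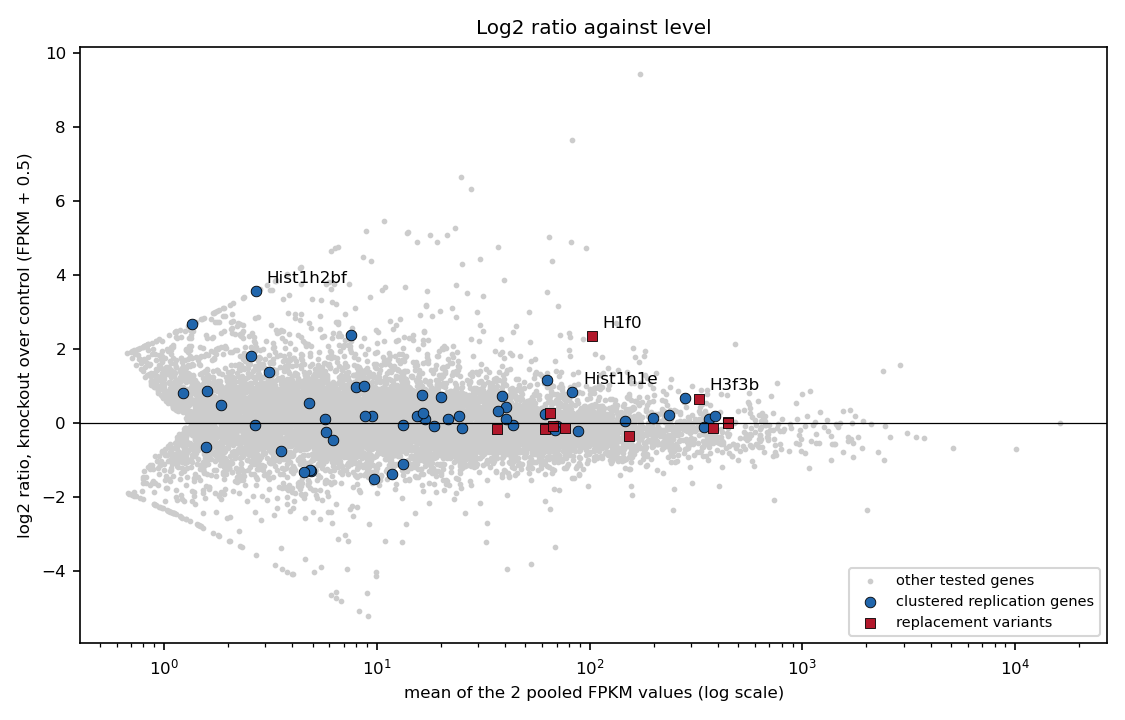
Log2 ratio of knockout over control (FPKM plus 0.5) against the mean of the 2 pooled FPKM values (log scale) for clustered genes (circles), replacement variants (squares) and all other tested genes (grey). The 4 called members are named, and the clustered genes fan out below about 10 FPKM, as do the other genes.

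Of the clustered genes as a class, Hist1h2bf and Hist1h1e rose, 0 fell, and 52 of 54 tested genes were not called. Their median log2 ratio was 0.18 (interquartile range -0.11 to 0.69), and 35 had a ratio above 0 and 19 below. Over all tested genes 5659 had a ratio above 0 and 5703 below. The clustered median was 0.13 without the 3 testis genes Hist1h1t, Hist1h2aa and Hist1h2ba, an alternative chosen after seeing the data. Summed over all 68 genes, FPKM came to 2749 in control cells and 3135 in the knockout, a ratio of 1.14. The 5 most abundant genes made up 54.8% of that sum in control and 55.0% in knockout cells.

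The spread of the ratios depended on level. At a mean of 50 FPKM or more, 13 clustered genes had an interquartile range of -0.09 to 0.24 around a median of 0.13, and 10 of them kept within 1.5-fold. All 1994 tested genes at that level had a median of -0.20 and an interquartile range of -0.50 to 0.15. Under 10 FPKM, 23 clustered genes had an interquartile range of -0.54 to 0.99 around 0.19, and the 5188 tested genes at that level had one of -0.38 to 0.71 around 0.15. Most clustered genes are short, so few fragments stand behind a low FPKM value, and the table does not give their number. Some deposited loci are longer, such as that of Hist1h2be (23583742 to 23621124), so this may not hold for every clustered gene. Whether a difference lies in the amount of a clustered transcript or in its polyadenylated share was not tested.

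The H4 genes were the most abundant clustered type and were not called. All 13 members were tested, with a summed level of 1246 FPKM in control cells against 1300 in the knockout and a median log2 ratio of 0.12. Hist1h4h stood at 362 FPKM in control cells against 415 in the knockout, Hist1h4k at 359 and 333 FPKM, Hist1h4d at 191 and 209 FPKM, and Hist1h4f at 144 and 149 FPKM. Hist1h4a (56.8 and 66.9 FPKM), Hist1h4b (44.6 and 43.2 FPKM), Hist1h4c (38.8 and 42.1 FPKM) and Hist1h4i (14.9 and 18.1 FPKM) followed. Of the 13 H4 genes, 10 kept within 1.5-fold of control. Lower still were Hist2h4 (8.17 and 9.39 FPKM), Hist4h4 (7.27 and 5.20 FPKM) and Hist1h4j (4.57 and 2.50 FPKM).

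Hist1h4m and Hist1h4n moved in opposite directions in value, and neither was called. Hist1h4m went from a listed 0 to 2.71 FPKM, and Hist1h4n stood at 14.6 and 4.81 FPKM. Their 250 bases upstream were 99.2% identical, with 2 edits between them. Their transcribed sequences were not compared, so whether their reads could be told apart was not tested. Summed, the pair stood at 14.6 FPKM in control cells against 7.52 in the knockout. The upstream windows of Hist1h2bq and Hist1h2br were identical, and both genes were listed at 0 in both groups. Coding sequences of histone genes of 1 type are known to be very alike, so how the authors' counting divided reads between them can affect every clustered value, and this was not tested.

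The H2A genes had the highest sum ratio of the clustered types, with no call. Of 19 members 12 were tested and 10 of these had a ratio above 0. The sum was 340 FPKM in control cells against 523 in the knockout, a ratio of 1.54, and the median log2 ratio was 0.61. Hist1h2af made up most of the sum, at 215 FPKM in control cells against 344 in the knockout (log2 ratio 0.68, q = 0.0677 in the authors' deposited table). Hist1h2ak (34.5 and 46.5 FPKM), Hist1h2al (32.8 and 41.5 FPKM), Hist2h2ac (15.1 and 24.8 FPKM) and the testis gene Hist1h2aa (12.0 and 20.8 FPKM) were higher in value. Hist3h2a, which shares a locus entry with Trim17, stood at 5.24 and 10.8 FPKM (q = 0.093 in the authors' deposited table).

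The low H2A genes scattered widely. Hist1h2ab stood at 2.11 FPKM in control cells against 13.1 in the knockout (log2 ratio 2.38, q = 0.519 in the authors' deposited table). Hist2h2ab (1.51 and 4.75 FPKM), Hist1h2ae (3.83 and 5.77 FPKM) and Hist1h2ah (1.48 and 2.25 FPKM) were higher in value as well. Hist1h2ac (7.22 and 2.63 FPKM) and Hist1h2ai (7.11 and 2.64 FPKM) were lower in value. A ratio as wide as that of Hist1h2ab thus came with a q far above the threshold.

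Among the H2B genes, Hist1h2bf was called. Control cells had it listed at 0, and it stood at 5.42 FPKM in knockout cells (q = 0.00379 in the authors' deposited table). A listed 0 may stand for an estimate that failed, so no fold is given. Its test statistic was not given in the table, so no normal p could be formed for it. Hist1h2bg came next to the threshold, at 38.9 FPKM in control cells against 87.3 in the knockout (log2 ratio 1.16, q = 0.0550 in the authors' deposited table).

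The other 12 tested H2B genes had no call. Hist2h2bb was the most abundant, at 352 FPKM in control cells against 379 in the knockout. Hist1h2bn (29.1 and 48.2 FPKM), Hist1h2bl (22.8 and 26.1 FPKM), Hist1h2bk (16.1 and 17.5 FPKM), Hist1h2bc (15.0 and 17.1 FPKM), Hist1h2bj (8.88 and 10.2 FPKM), the testis gene Hist1h2ba (0.861 and 4.25 FPKM) and Hist3h2ba (0.756 and 1.70 FPKM) were higher in value. Hist1h2bb (17.2 and 6.32 FPKM), Hist1h2bh (18.4 and 8.21 FPKM), Hist1h2bm (6.71 and 2.36 FPKM) and Hist1h2be (2.04 and 1.13 FPKM) were lower in value. The 14 tested H2B genes had a median log2 ratio of 0.19, and all 18 summed to 528 FPKM in control cells against 616 in the knockout.

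The Hist1h2bf window (chr13:23574208-23574457, minus strand) is shown because it is shared with an H2A gene. Hist1h2ad starts 174 bases away on the opposite strand and was listed at 0 in both groups. The window held 4 CCAAT matches, on either strand, and a TATAAA match on the opposite strand 209 bases upstream. The TATAAA match lies past the RefSeq start of Hist1h2ad, so it is not placed as a TATA box of either gene.
Hist1h2bf: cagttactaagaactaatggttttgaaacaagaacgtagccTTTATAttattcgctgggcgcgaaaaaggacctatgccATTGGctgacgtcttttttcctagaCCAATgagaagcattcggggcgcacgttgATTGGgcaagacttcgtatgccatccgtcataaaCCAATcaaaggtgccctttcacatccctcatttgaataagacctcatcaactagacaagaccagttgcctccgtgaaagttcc

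Such head-to-head pairs of an H2A and an H2B gene are a known feature of the clusters. Among the 76 members with a RefSeq window, 9 pairs were found with starts on opposite strands and 164 to 281 bases apart. Members without a window could not be paired. One of them is Hist1h2bc, whose deposited locus lies beside Hist1h2ac. Both were tested and differed in sign (log2 ratios 0.18 and -1.30). In 5 of the 9 pairs both genes were tested, and in 4 of those both had a ratio above 0. These were Hist1h2ae with Hist1h2bg, Hist1h2ah with Hist1h2bk, Hist1h2ak with Hist1h2bn, and Hist1h2ba with Hist1h2aa. In the remaining pair, Hist1h2bl (log2 ratio 0.19) and Hist1h2ai (log2 ratio -1.28) differed in sign. With 35 of 54 clustered genes above 0 in any case, the 5 pairs say little on whether partners move together. Upstream windows of a pair overlap, so the motif counts below take some stretches more than once.

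CCAAT was in 17 of 17 H2A windows, 17 of 17 H2B windows, 8 of 10 H3 windows and 3 of 12 H4 windows of the clustered genes. The octamer core was in 7 of 17 H2A, 7 of 17 H2B, 0 of 10 H3 and 1 of 12 H4 windows, against 4.12% of all windows. TATAAA was in 46.8% of the 62 clustered windows (61 genes, 1 of them with 2 starts), in 6.67% of the 15 replacement windows and in 12.4% of all windows. The median number of CpG dinucleotides in 250 bases was 9 in clustered, 14 in replacement and 6 in all windows.

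Most clustered genes lie in 2 blocks on chromosome 13, in the deposited coordinates. The first (21715763 to 22043676) held 23 members, of which 15 were tested and 0 called, and its sum was 599 FPKM in control cells against 590 in the knockout. The second (23531050 to 23934851) held 31 members, of which 30 were tested and 2 called higher, Hist1h1e and Hist1h2bf, and its sum was 1633 and 1985 FPKM. The median log2 ratios of the blocks were 0.12 and 0.16. Hist1h2al lies apart from both, at 51202688 to 51203065. The 10 members on chromosome 3 (5 tested) summed to 471 and 501 FPKM, with a median log2 ratio of 0.19. The 2 members on chromosome 11, Hist3h2a and Hist3h2ba, had log2 ratios of 0.98 and 0.81, and Hist4h4 on chromosome 6 had -0.45.

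**Figure D4:**
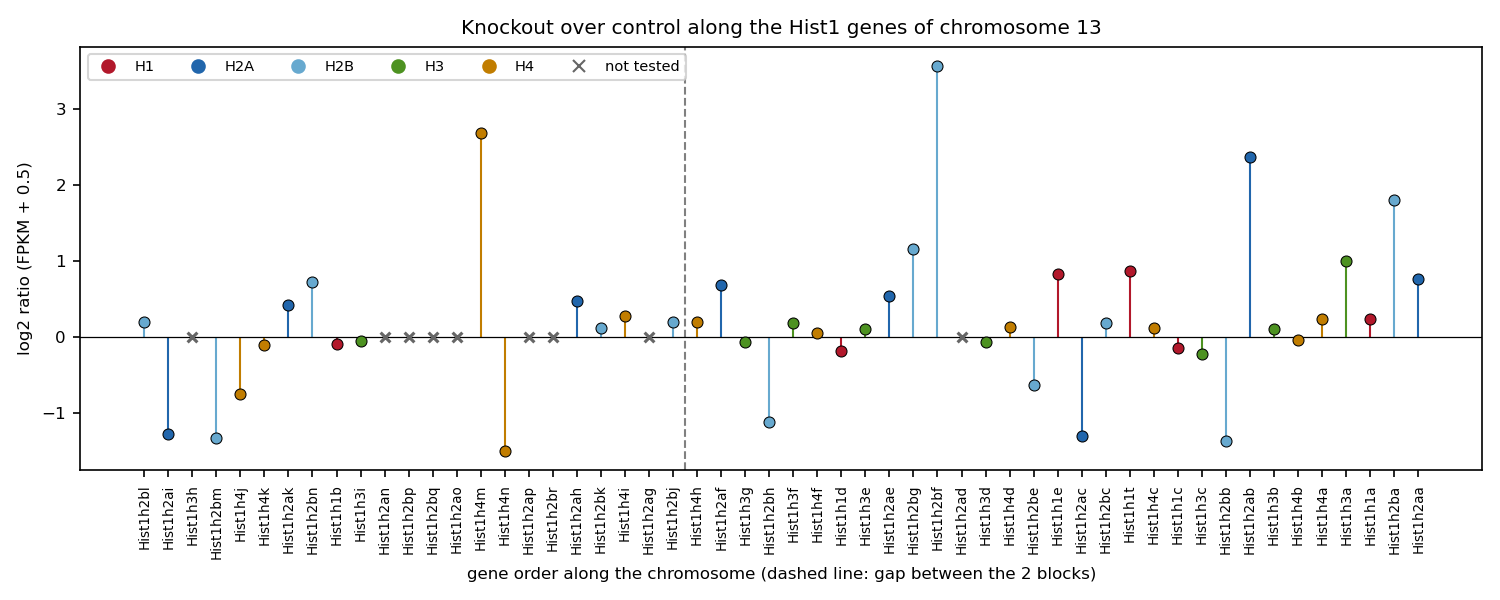
Log2 ratio (FPKM plus 0.5) of the Hist1 genes of the 2 chromosome 13 blocks in their order along the chromosome, coloured by histone type, with crosses at 0 for genes not tested. Values above and below 0 are interspersed in both blocks, and H4 and H3 genes stay near 0 except Hist1h4m, Hist1h4n, Hist1h4j and Hist1h3a.

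Between the first and the last member of these 2 blocks lie 46 other genes, of which 33 are Vmn1r pheromone receptor genes, each listed at 0 in both groups. Of the 46, 3 were tested and 0 called. Abt1 stood at 170 and 128 FPKM, and Zfp322a at 0.391 and 1.39 FPKM. Zfp184, in the first block, stood at 1.90 FPKM in control cells against 1.60 in the knockout. No member lies on chromosomes 8 or 14; the median log2 ratio of tested genes was 0.70 on chromosome 14 and 0.08 on chromosome 13.

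Of the 19 untested members, 11 were listed at 0 in both groups, which does not show a low level, and the highest value of the others was 1.91 FPKM. Hist1h2ag stood at 1.66 and 1.91 FPKM, Hist1h3h at 1.75 FPKM in control and listed at 0 in knockout cells, Hist2h2be listed at 0 and at 0.662 FPKM, and Hist1h2ap listed at 0 and at 0.542 FPKM. Hist1h2an (0.204 and 0.240 FPKM) and Hist2h3c2 (0.139 and 0.219 FPKM) were lower still. The members at 0 included the paired copies Hist2h2aa1 and Hist2h2aa2 on chromosome 3.

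The genes that make, process and deposit histones were examined as 7 lists holding 106 tested genes, each counted once. Calls were 5 higher and 5 lower, with 96 genes uncalled, beside the background of 12.9% called, and their median log2 ratio was 0.03. In the list for transcription and 3' processing of histone genes, 1 of 22 tested genes rose and 4 fell, 17 had no call, and the median log2 ratio was -0.17. Eri1, an exonuclease that trims histone mRNA ends, fell from 28.9 to 11.1 FPKM (log2 ratio -1.34). It lies on chromosome 8 among 15 tested genes within 2 Mb with a median of -0.66. Snrpe, a Sm protein gene shared by U7 and spliceosomal particles, fell from 75.5 to 32.2 FPKM, and Zfp473, whose product binds the U7 complex, rose from 5.36 to 11.9 FPKM (q = 0.0494 in the authors' deposited table). The other 2 lower calls were Snrpf (63.1 to 28.7 FPKM) and Nelfe (208 to 109 FPKM), a gene for a subunit of the negative elongation factor. Both lie outside the naming rule and were added after their values were seen. The central factors were not called: Slbp, for the stem-loop binding protein, stood at 75.7 and 75.3 FPKM, and Npat, the coactivator of the clusters, at 6.26 and 6.87 FPKM.

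Of 15 tested genes for histone mRNA decay, 1 was called higher and 0 lower. Upf1, a helicase that acts in this decay and in nonsense-mediated decay, rose from 27.02 to 62.8 FPKM, 2.32-fold, while 90 tested genes within 2 Mb of it on chromosome 8 had a median of -0.28. Of 18 tested chaperone genes for histone supply, 2 were called higher and 0 lower, with a median log2 ratio of 0.27. These were Supt16, a FACT subunit gene (39.0 to 83.3 FPKM, log2 ratio 1.09), and Ipo4, a histone importin gene (13.2 to 23.4 FPKM, log2 ratio 0.81). Both lie on chromosome 14, where the tested genes within 2 Mb had medians of 1.04 and 1.02. Chaf1a, the large subunit gene of the CAF-1 chaperone, stood at 131 and 109 FPKM and was not called. Asf1a, named after its values were seen, stood at 4.74 and 28.5 FPKM and was not called (q = 0.266 in the authors' deposited table).

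Of 9 tested genes for H3.3 deposition, 1 was called higher and 0 lower. Atrx, the remodeller that deposits H3.3 at repeats, rose from 4.08 to 7.49 FPKM (q = 0.0101 in the authors' deposited table), and Hira stood at 36.4 and 18.4 FPKM without a call. Of 15 tested genes for exchange and reading of H2A variants, 0 were called, and Srcap, the H2A.Z exchange enzyme gene, stood at 70.5 and 48.7 FPKM. Of 9 tested genes for CENP-A loading, 1 was called lower, Cenpt (99.1 to 54.3 FPKM), and Hjurp, the chaperone gene, stood at 83.1 and 96.7 FPKM. Of 19 tested S-phase genes, 0 were called, with a median log2 ratio of 0.07, and Pcna, the replication clamp gene, stood at 679 and 657 FPKM. Of the called genes here, Snrpf, Zfp473, Upf1, Supt16 and Cenpt share their locus entry with at least 1 other gene. The uncalled Hira, Srcap, Chaf1a and Asf1a do too. The entries of Upf1 and Srcap each hold 3 genes, and that of Hira holds 4. In the authors' deposited table q was 0.0012 for Eri1, Upf1, Supt16 and Cenpt, 0.0112 for Ipo4 and 0.0304 for Snrpe.

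**Figure D5:**
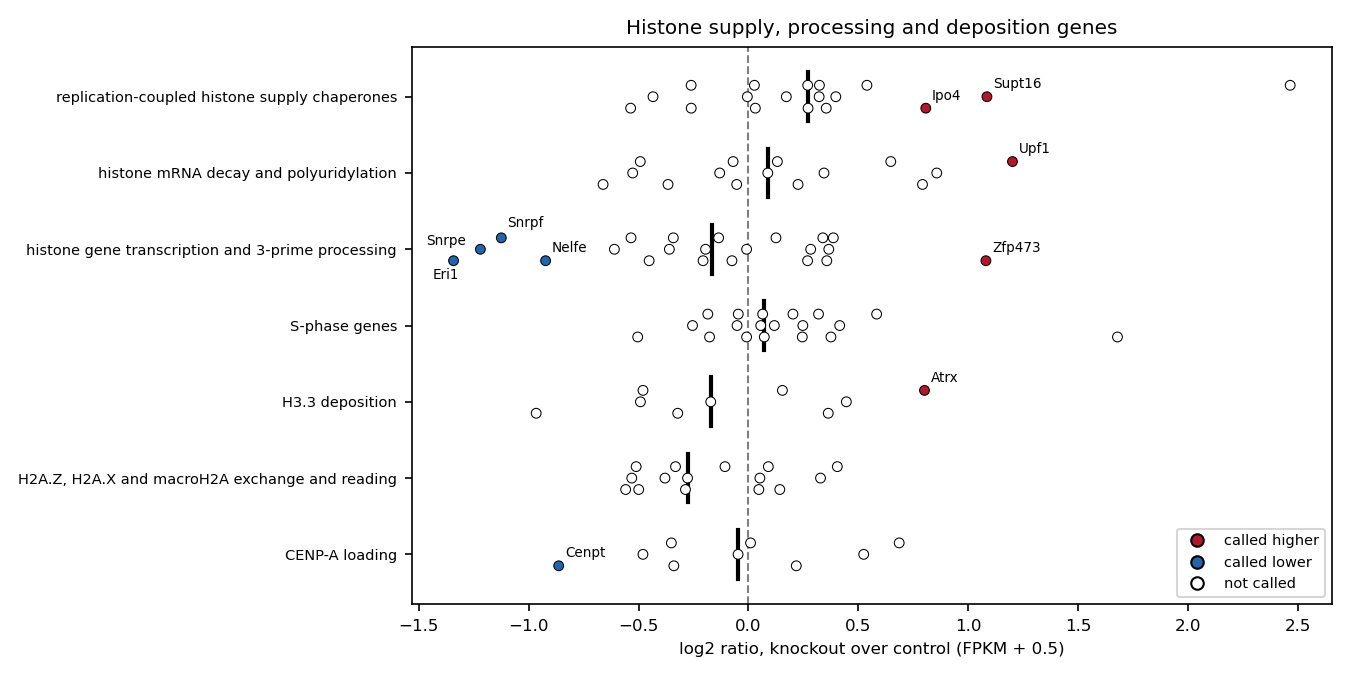
Log2 ratio (FPKM plus 0.5) of tested genes in the 7 lists, filled where called (red higher, blue lower), with list medians as bars and the median of all tested genes as a dashed line. The 19 S-phase genes and 15 H2A variant exchange genes hold no filled point.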

How the data were processed

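RNA-seq of 3 control and 3 MTF2 knockout libraries was analysed from 1 gene table. Per the submitters' processing notes, which assign no roles, the tools were TopHat2 2.1.0, Cuffdiff 2.2.1.3, Bowtie 1.0 and deepTools, and mm10 and mm9 the builds. FPKM were made by the authors as 1 pooled value per group, per the file headers. The log2 fold change, the p-value and q-value and the test statistic, a score, were deposited by the authors. Their q matched a Benjamini-Hochberg (BH) adjustment of their p over the 11362 tested genes. Depth per library is unknown, as no counts were used.

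Computed here were log2 ratios with a pseudocount of 0.5, sums, medians and counts (Python 3.11.15, pandas 2.3.3, numpy 2.4.6, scipy 1.17.1, edlib 1.3.9.post1), without a filter on low values. Calls are the authors' (status OK, q at or under 0.05), and with pooled values no test across libraries could be made here. The BH and motif functions were tested on simulated data. Of 83 members matched to RefSeq on GRCm38.p6, 77 had both ends within 2 kb of the deposited locus, so coordinates are given as mm10, 1-based.

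The members and lists were chosen with earlier results of these data known. Named genes were all tested members, the untested ones with a value, Mtf2, in each list no more than 2 called genes in either direction, and the key factors Slbp, Npat, Chaf1a, Hira, Srcap, Hjurp and Pcna. The markers and the chromosome 13 neighbours were named after their values were seen. The H1 box search was added after the data were seen. Alternatives tried were a q of 0.01, a 2-fold minimum, a normal p from the test statistic, and BH over genes at 1 FPKM or more. The last left out no gene, as all 11362 tested genes reached 1 FPKM in a group, so it could change no call. The normal p is not the authors' Cuffdiff p. Pseudocounts of 0.1 and 1, centring, scaling, and leaving out genes that share a locus entry, are listed at 0 or are testis genes were tried too.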

Additional observations from a re-analysis of the deposited data

How the results depend on the processing

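The number of clustered genes called was 2, all higher. It was 1 at a q of 0.01, 1 with a 2-fold minimum, 1 without members listed at 0 (an alternative chosen after seeing the data), and 0 when the test statistic was read as a normal deviate, where Hist1h2bf could not be called because it has no test statistic, so that only the loss of Hist1h1e comes from a test. There, 0 clustered genes had an unadjusted normal p under 0.05 and 5 an unadjusted Cuffdiff p under 0.05 with a higher value. The number of replacement genes called, 2, was 1 at a q of 0.01, 1 with a 2-fold minimum and 1 with that normal p. H1f0 was the gene left in each. The share of all tested genes called under these alternatives was not computed, so the losses cannot be set beside a background. Scaling each group to its summed FPKM took the summed ratio to 1.26 for clustered and 1.22 for replacement genes, and the median log2 ratio, in an alternative chosen after seeing the data, to 0.33 for clustered and 0.05 for replacement variants (0.054 before rounding). Under it 10 of 65 tested members changed sign, none of them called. The remaining 22 alternative values of these counts, medians and sums moved by no more than 0.1 on the log2 scale or 1.5 times. Some of them could not move: every tested gene reached 1 FPKM in a group, and no tested replacement gene was listed at 0. Pooled values limit all of this: the spread between libraries and the fragments behind a low value are not given. No paired analysis was possible because the table holds 1 pooled value per group and no replicate columns, and no library could be left out for the same reason.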
